A study of Homo sapiens with 6 samples.

Results

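The 10 genes considered here make UDP-GlcNAc through the hexosamine pathway, recycle its sugar, or attach and remove O-GlcNAc, the single N-acetylglucosamine carried by many nuclear and cytosolic proteins. They were chosen by name, and a probe set was taken for each gene whose RefSeq accession stood at the start of a probe set identifier. The array table held 8 of them with 1 probe set each (GFPT1, GFPT2, GNPNAT1, UAP1, NAGK, GNPDA1, OGT and OGA), 8 of 1259 probe sets in all. The other 2 had no matched accession. They are PGM3, which converts GlcNAc-6-phosphate to GlcNAc-1-phosphate, and UAP1L1, a homologue of UAP1, both not analysed here.

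RKO is a human colon carcinoma cell line, and 2 of its populations were profiled, with 3 arrays each. RKO C2 F3 was sorted by flow cytometry from RKO C2 for low u-PAR, the urokinase receptor, a glycoprotein. The study's design text asks which glycosylation enzyme could account for its incomplete maturation, and u-PAR itself was not analysed here. RKO C2 is a clonal population of the parent line and served as the control. The labels call both populations clonal, and in another place RKO C2 F3 only a derived population, so results may be those of 1 clone each. They name no treatment or engineered allele. Nothing states that replicate arrays stem from different cultures, so the p-values reflect array-to-array spread that may be technical.

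UDP-GlcNAc is the donor for N-glycan synthesis, GPI anchor synthesis, hyaluronan, heparan sulfate and O-GlcNAc, so its supply reaches most branches of glycosylation. Fructose-6-phosphate and glutamine are joined by GFPT1 or GFPT2, the rate-limiting step, and GNPNAT1, PGM3 and UAP1 then act in turn. NAGK returns free GlcNAc to the pathway, and GNPDA1 runs the opposite way, turning glucosamine-6-phosphate back to fructose-6-phosphate. OGT and OGA are the enzyme pair that adds and removes O-GlcNAc.

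The upstream sequences of 3 of the genes are shown because they stand at the entry of the pathway (GFPT1), at its last step (UAP1) and at the use of its product on proteins (OGT). Each is the 250 bases before an annotated start, read 5′ to 3′ on the gene's own strand from the RefSeq promoter table of GRCh38.p14. GFPT1 is chr2:69387228-69387477 on the minus strand, UAP1 is chr1:162561281-162561530 on the plus strand, and OGT is chrX:71532854-71533103 on the plus strand. Capitals mark matches on either strand to the CCAAT box, to GGGCGG (the core of GC boxes), to CACGTG (an E box), to TGACGT (part of the cyclic AMP response element) or to CCACG (part of the endoplasmic reticulum stress element). UAP1 has 3 annotated windows in the table, and the one shown lies before the first of the 3 starts.
GFPT1: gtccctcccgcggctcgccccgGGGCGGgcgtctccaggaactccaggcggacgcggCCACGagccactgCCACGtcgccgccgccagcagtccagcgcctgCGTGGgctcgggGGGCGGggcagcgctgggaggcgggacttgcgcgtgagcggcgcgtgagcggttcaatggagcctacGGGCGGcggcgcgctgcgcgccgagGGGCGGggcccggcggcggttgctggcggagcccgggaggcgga
UAP1: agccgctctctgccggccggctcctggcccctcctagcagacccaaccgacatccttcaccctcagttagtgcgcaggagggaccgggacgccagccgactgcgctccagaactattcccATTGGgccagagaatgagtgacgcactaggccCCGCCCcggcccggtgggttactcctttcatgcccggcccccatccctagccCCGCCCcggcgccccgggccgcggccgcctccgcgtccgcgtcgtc
OGT: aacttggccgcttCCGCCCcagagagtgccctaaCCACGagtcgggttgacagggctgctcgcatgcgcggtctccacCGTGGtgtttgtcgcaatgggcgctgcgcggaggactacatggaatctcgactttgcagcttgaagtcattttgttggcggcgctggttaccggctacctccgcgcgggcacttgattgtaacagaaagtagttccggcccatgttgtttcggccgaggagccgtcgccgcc

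All 8 measured genes had at least 1 window with GGGCGG, in 10 of their 11 windows, against 42.6% of 35116 windows of all genes. These windows held 58.0% to 80.8% G and C, where the median window of all genes held 58.0%. Windows of the same gene can overlap. CCACG was found in 6 of the 11 windows (33.5% of all windows) and CCAAT in 3 (32.0%). CACGTG was found in 1 window, of GNPDA1 (6.34%), and TGACGT in 1 window of UAP1 that is not shown (7.10%). CACGTG in GNPDA1 overlaps a CCACG match. These matches describe letters in a window and not binding.

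Values are log2 expression from RMA, which normalizes arrays together and gives 1 value per probe set and array, with no detection call. The 6 array medians lay between 5.48 and 5.51, and the median spread within a population was 0.083 (SD, n = 3 each). The 8 genes had mean log2 values from 8.52 to 11.3, all above the median probe set at 5.50. Levels of different probe sets cannot be ordered, because each set of probes binds with its own efficiency, so each gene is compared only with itself. In whole-population RNA, fewer cells with a transcript and less transcript per cell cannot be told apart.

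None of the 8 genes passed the limma test between RKO C2 F3 and RKO C2 at an adjusted p of 0.05, where 0.0794% of all probe sets did (1 of 1259, lower in RKO C2 F3). UAP1 was the only one with an unadjusted limma p under 0.05, against 5.40% of all probe sets. The 3 arrays of one population lay wholly above those of the other for 0 of the 8 genes, while 10.3% of all probe sets were separated in this way. The bounds of the 95% intervals of all 8 changes, as RKO C2 F3 over RKO C2, ran from 0.780-fold (the lower bound of OGT) to 1.26-fold (the upper bound of UAP1). These intervals are per gene, from the fit without the replicate number as a block, and not adjusted over the genes.

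**Figure D1:**
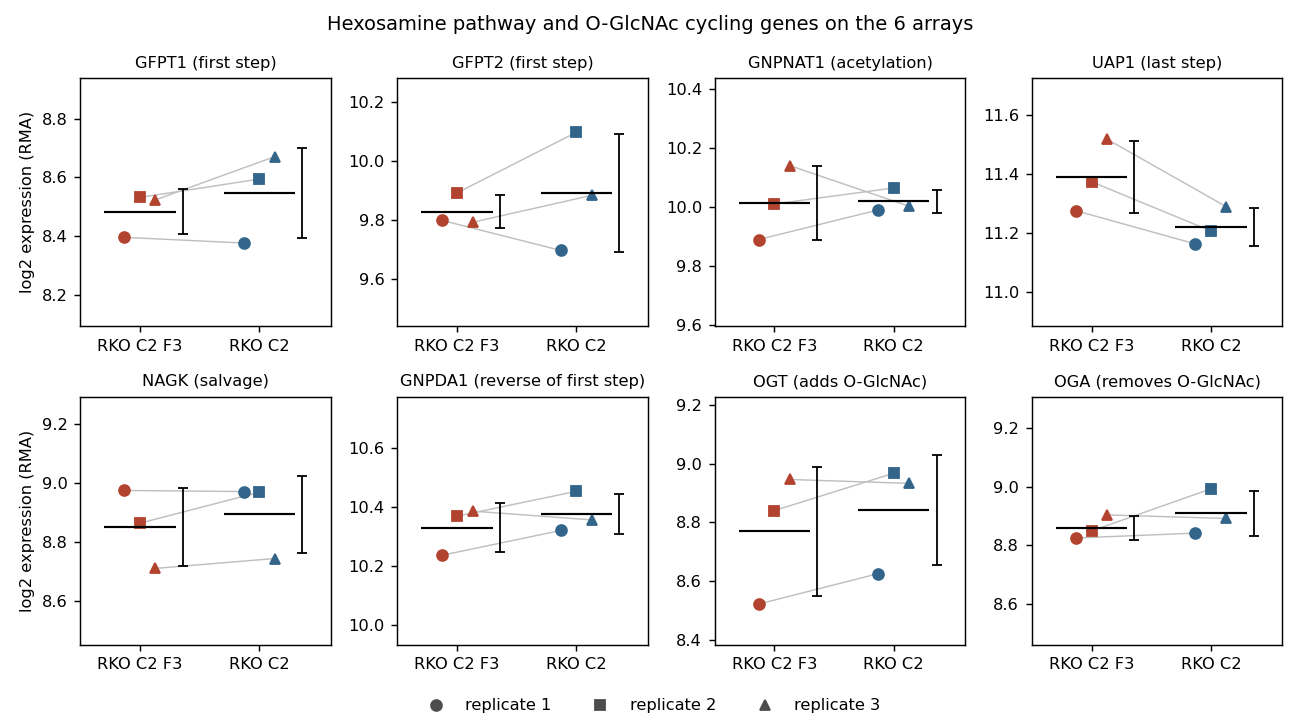
Log2 expression (RMA) of the 8 genes on each array, RKO C2 F3 in red and RKO C2 in blue, with a symbol for each replicate number, grey lines joining equal numbers, black bars for means and whiskers for SD (n = 3 each). The panels share a span of log2 values and not a level. The populations overlap in every panel, least in UAP1.

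At the entry of the pathway, GFPT1 had log2 values of 8.40, 8.53 and 8.52 on RKO C2 F3 arrays 1, 2 and 3, against 8.38, 8.59 and 8.67 on RKO C2 arrays 1, 2 and 3. The RKO C2 F3 values lay inside the range of RKO C2. The log2 change was -0.063 (SE 0.083, 95% interval -0.25 to 0.13, limma adjusted p = 0.998), and it was -0.0017 without RKO C2 replicate 3 and -0.15 without RKO C2 replicate 1.

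GFPT2, the second glutamine-fructose-6-phosphate aminotransferase, had log2 values of 9.80, 9.89 and 9.79 in RKO C2 F3, against 9.70, 10.10 and 9.88 in RKO C2. Its RKO C2 F3 arrays again fell within the RKO C2 range, which was set by replicates 1 and 2. The difference on the log2 scale was -0.065 (SE 0.096, 95% interval -0.28 to 0.15, limma adjusted p = 0.998). It turned positive without RKO C2 replicate 2, at 0.038. For both aminotransferase genes the change was smaller than the SD among the RKO C2 arrays, 0.15 for GFPT1 and 0.20 for GFPT2. Among the RKO C2 F3 arrays the SD was 0.076 for GFPT1 and 0.056 for GFPT2, and the GFPT2 change was larger than the latter.

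GNPNAT1, which acetylates glucosamine-6-phosphate, had log2 values of 9.89, 10.01 and 10.14 in RKO C2 F3, against 9.99, 10.07 and 10.003 in RKO C2. The RKO C2 F3 arrays reached both below and above all RKO C2 arrays. Its log2 change was -0.0056 (SE 0.071, 95% interval -0.17 to 0.16, limma adjusted p = 0.998), the closest to 0 among the 8 genes. Its sign turned in 7 of 15 alternatives, among them median centring (0.0098) and quantile normalization (0.018), without RKO C2 F3 replicate 1 (0.056) and without RKO C2 replicate 2 (0.017).

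UAP1 encodes the pyrophosphorylase that completes UDP-GlcNAc, and it was the 1 gene of the 8 with a positive change. It had log2 values of 11.28, 11.37 and 11.52 in RKO C2 F3, against 11.16, 11.21 and 11.29 in RKO C2. The populations touched only through RKO C2 F3 replicate 1, which was 0.013 below RKO C2 replicate 3. The means were 11.39 ± 0.12 in RKO C2 F3 and 11.22 ± 0.064 in RKO C2 (SD, n = 3 each).

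The UAP1 log2 change was 0.17 (SE 0.072, 95% interval 0.0039 to 0.34), or 1.12-fold, with a limma unadjusted p of 0.0459 and an adjusted p of 0.903. Its size was reached by 4.69% of all probe sets, in either direction. UAP1 was higher in RKO C2 F3 in each of the 3 pairs of equal number, by 0.11, 0.17 and 0.23, and 12.1% of all probe sets were higher in all 3 pairs. The change was 0.11 without RKO C2 F3 replicate 3 and 0.23 without RKO C2 F3 replicate 1, and the adjusted p lay between 0.516 and 0.999 over 15 alternatives.

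**Figure D2:**
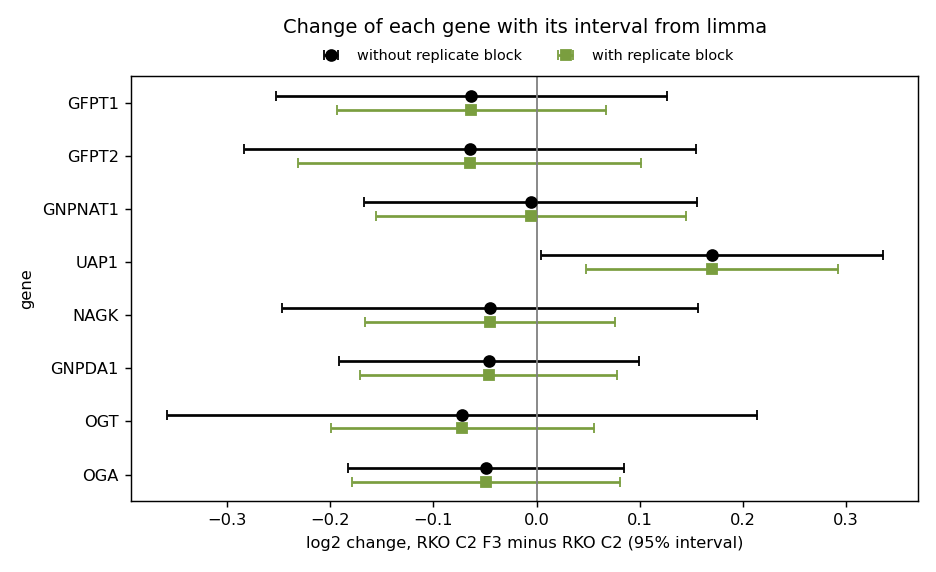
Log2 change (RKO C2 F3 minus RKO C2) of the 8 genes with 95% intervals from limma, in black without and in green with the replicate number as a block. UAP1, at 0.17, is the only gene whose interval leaves out 0, and its adjusted p over all probe sets was 0.903 (0.516 with the block).

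For salvage, NAGK, the GlcNAc kinase, had log2 values of 8.97, 8.86 and 8.71 in RKO C2 F3, against 8.97, 8.97 and 8.74 in RKO C2. Array 3 was the lowest in both populations, and the ranges overlapped almost completely. NAGK had a log2 change of -0.045 (SE 0.088, 95% interval -0.25 to 0.16, limma adjusted p = 0.998), which became 0.025 without RKO C2 F3 replicate 3.

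GNPDA1, the deaminase that opposes the first step, had log2 values of 10.23, 10.37 and 10.38 in RKO C2 F3, against 10.32, 10.45 and 10.36 in RKO C2. The arrays of both populations were interleaved, with the lowest in RKO C2 F3 and the highest in RKO C2. The log2 change was -0.046 (SE 0.064, 95% interval -0.19 to 0.099, limma adjusted p = 0.998), and it was 0.00084 without RKO C2 F3 replicate 1.

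OGT had log2 values of 8.52, 8.84 and 8.95 in RKO C2 F3, against 8.63, 8.97 and 8.93 in RKO C2. Array 1 was the low one in both populations, by more than the populations differed. For OGT the log2 change was -0.072 (SE 0.12, 95% interval -0.36 to 0.21, limma adjusted p = 0.998), with a positive value of 0.051 without RKO C2 F3 replicate 1.

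OGA, the hydrolase that removes what OGT adds, had log2 values of 8.83, 8.85 and 8.90 in RKO C2 F3, against 8.84, 8.99 and 8.89 in RKO C2. Only RKO C2 replicate 2 stood above the other 5 arrays. The log2 change was -0.049 (SE 0.058, 95% interval -0.18 to 0.084, limma adjusted p = 0.998), the smallest SE of the 8, and it was -0.0073 without RKO C2 replicate 2.

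Negative changes were more common among probe sets at the level of the 8 genes than among all. The other 7 genes besides UAP1 had negative changes, with a median of -0.049. Of the 139 other probe sets whose mean log2 value lay in the range of the 8 genes, 67.6% had a negative change, with a median of -0.035, whereas 54.6% of all 1259 did, with a median of -0.0064. The median absolute change was 0.056 for the 8 genes and 0.056 for those 139 probe sets. UAP1 had a change of the opposite sign.

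**Figure D3:**
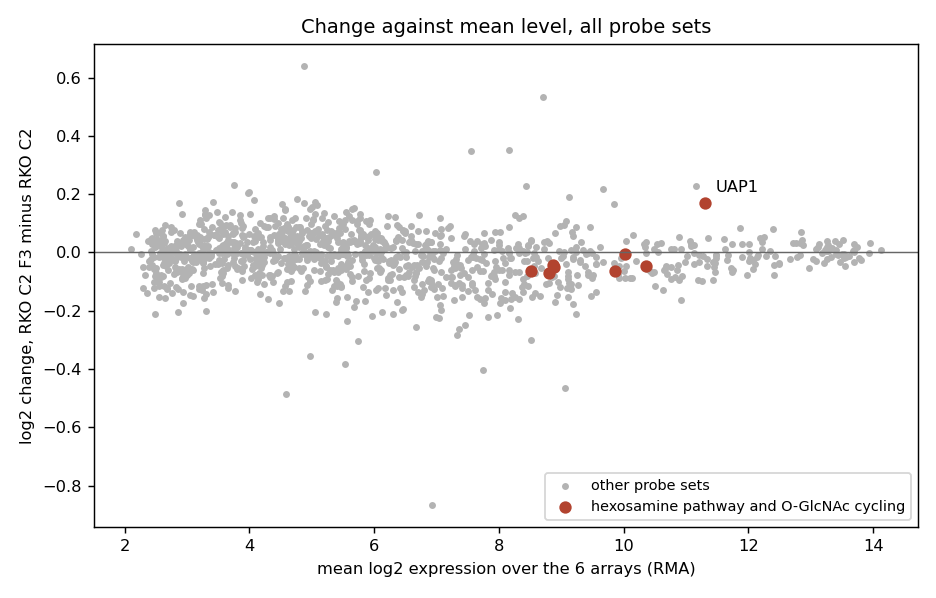
Log2 change (RKO C2 F3 minus RKO C2) against mean log2 expression over the 6 arrays for all 1259 probe sets, with the 8 genes in red. UAP1 lies at 0.17, above most probe sets of its level, and the other 7 lie between -0.072 and -0.0056, where probe sets of like level also lean below 0.

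For 5 of the 8 genes (GFPT1, GFPT2, UAP1, NAGK and OGT) the arrays of each number deviated from their population means in the same direction, where 24.4% of all probe sets did so. The replicate 1 array was the lowest of its population, in both populations, for 6 of the 8 genes, against 24.7% of all probe sets. GFPT2 was lowest on array 3 of RKO C2 F3 and on array 1 of RKO C2, and NAGK was lowest on array 3 of both. OGT showed the widest deviation, with array 1 at -0.25 from the mean in RKO C2 F3 and at -0.22 in RKO C2, and array 3 at 0.18 and 0.091. The 8 genes share the same 6 arrays, so these counts are a description. Both shares are of all probe sets, most of them dimmer than the 8 genes, and shares at the level of the 8 were not computed.

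The spread of OGT within a population was 0.20 (SD pooled over both populations), larger than that of 97.4% of probe sets, and that of OGA was 0.061. In a fit that blocks on the replicate number, the SE of OGT fell to 0.053, against 0.12 without it, and its 95% interval narrowed to -0.20 to 0.055. NAGK had a blocked SE of 0.050, against 0.088 without the block. For UAP1 the blocked SE was 0.051, against 0.072, with a 95% interval of 0.048 to 0.29 (limma unadjusted p = 0.014). No gene of the 8 passed in the blocked fit either, where 0.159% of all probe sets did, and the smallest adjusted p was that of UAP1, at 0.516.

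**Figure D4:**
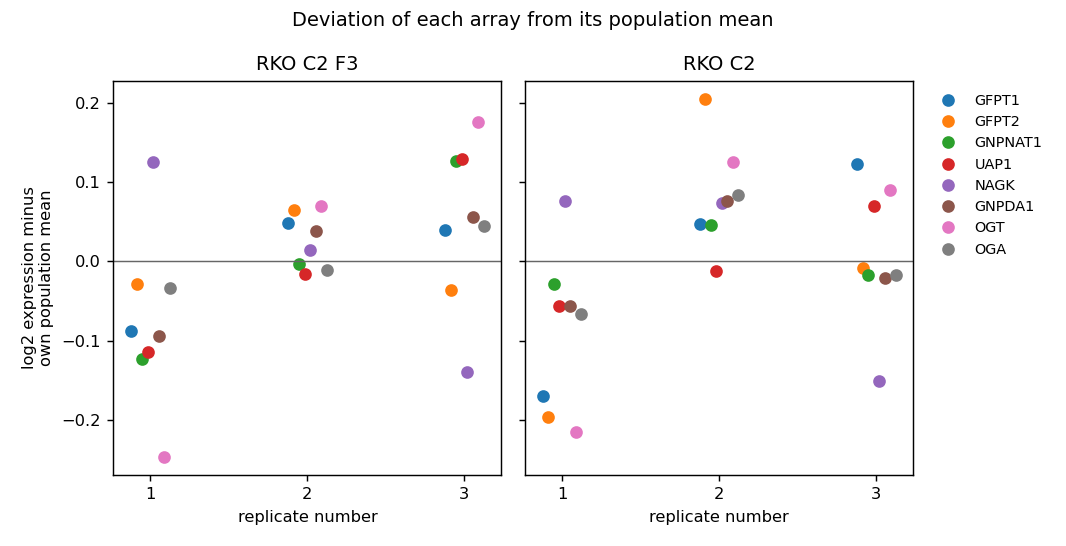
Log2 expression of each gene minus the mean of its own population, by replicate number, for RKO C2 F3 on the left and RKO C2 on the right. Most genes lie below 0 on replicate 1 in both panels, with OGT lowest at -0.25 and -0.22, and NAGK runs the other way, at 0.13 and 0.076.

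Among named genes outside this group, the profiles most like that of UAP1 over the 6 arrays, each centred on its own mean, were those of IFNG, ASAH1, UGP2 and GALNT3. Their root mean square differences from UAP1 were 0.042, 0.052, 0.061 and 0.061 on the log2 scale, against a median of 0.14 over 1035 probe sets and 0.12 for a flat profile. The 4 were picked as the smallest differences, so their place below the median follows from the choice. UGP2, which makes UDP-glucose, had a log2 change of 0.066, with a mean level of 8.90. IFNG and GALNT3 had low mean log2 values of 3.21 and 2.51, and ASAH1 was at 4.68, also below the median probe set at 5.50. None of the 4 passed the test (limma adjusted p from 0.966 to 0.974).

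The neighbouring steps of UDP-GlcNAc metabolism held no gene past the threshold either. Of 11 listed genes of synthesis, salvage and breakdown outside the 8, 6 were measured and 5 had negative changes. Among all probe sets 54.6% had a negative change, and 67.6% of the 139 at the level of the 8 genes. The median of the 6 was -0.12, against -0.0064 over all probe sets and -0.035 over those 139. PGM1, a phosphoglucomutase, had log2 values of 8.89, 8.94 and 8.91 in RKO C2 F3, against 8.99, 9.13 and 8.98 in RKO C2. These arrays did not overlap, as for 10.3% of all probe sets, and the log2 change was -0.12 (SE 0.059, limma adjusted p = 0.966).

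All 4 listed transporter genes were measured, with a median change of -0.055. SLC35B4, a Golgi carrier of UDP-xylose and UDP-GlcNAc, had 6.93, 6.90 and 6.94 in RKO C2 F3, against 7.09, 7.27 and 7.10 in RKO C2. Every RKO C2 F3 array was below every RKO C2 array, and the limma adjusted p was 0.731. SLC35D1, a carrier of UDP-glucuronic acid and UDP-GalNAc, had 5.11, 5.07 and 5.05 in RKO C2 F3, against 4.89, 4.96 and 5.03 in RKO C2. Here every RKO C2 F3 array was above every RKO C2 array, with a log2 change of 0.12 and a limma adjusted p of 0.966. Both were named for their small p, and 10.3% of all probe sets were separated in one direction or the other. SLC35A3, the UDP-GlcNAc carrier of the Golgi, was at -0.096 (limma adjusted p = 0.974).

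Of 23 genes for first uses of UDP-GlcNAc, 21 were measured, 15 with negative changes, against 54.6% of all probe sets. The median of the 21 was -0.028. HAS2, a hyaluronan synthase that consumes UDP-GlcNAc, had 5.41, 4.72 and 5.44 in RKO C2 F3, against 4.52, 4.51 and 4.62 in RKO C2. RKO C2 F3 replicate 2 lay near the RKO C2 arrays, and the limma adjusted p was 0.731. Without that array the log2 change of HAS2 was 0.88, against 0.64 with it, and passed (limma adjusted p = 0.0038). It also passed without replicate 2 of both populations (0.014). These were 2 of 14 alternatives, both without the array that differed, and in the others the limma adjusted p was 0.402 or more. The mean log2 value of HAS2 was 4.87, below the median probe set at 5.50 and under the filter at 5. PIGA, the catalytic subunit of the first GPI anchor enzyme, was at -0.12 and PIGH, another subunit of that enzyme, at -0.15, both with a limma adjusted p of 0.966.

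Of 13 listed symbols of genes whose products release GlcNAc or act near it in glycan breakdown, 8 were measured with a median of -0.015. AGA, the aspartylglucosaminidase, was at -0.12 and HYAL1, a hyaluronidase, at 0.11. The mean log2 value of HYAL1 was low, at 3.51. The unfolded protein response and glutamine supply list had 1 of 12 genes measured, the lectin chaperone CANX at -0.15 (limma adjusted p = 0.837). The 11 measured of 21 ribosomal protein and housekeeping genes had a median of 0.0044, with GUSB at -0.15, RPS27A at 0.042 and RPL32 at -0.061. None of these lists had a member past the threshold.

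Of 11 markers of colon epithelium, 3 were measured (MUC2, MUC13 and LGALS4), with log2 means from 4.23 to 5.15 in RKO C2 F3 and from 4.13 to 5.12 in RKO C2. The summed level of 8 measured leukocyte markers of 14, as log2, ran from 8.21 to 8.27 in RKO C2 F3 and from 8.22 to 8.34 in RKO C2. That of 7 measured fibroblast and endothelial markers of 12 ran from 6.68 to 6.76 in RKO C2 F3 and from 6.77 to 6.84 in RKO C2. Such sums weigh the brightest probe sets most, CD83 (mean 7.24) in the first and ICAM2 (5.04) and PECAM1 (5.01) in the second. LUM (2.30), DCN (2.39), SELE (2.80) and VCAM1 (3.01) lay near the lowest value of all, 2.08. The sums are therefore no measure of the content of these cell types. CD72, a B cell receptor, was at 0.23 (limma adjusted p = 0.731) and ICAM2, an endothelial adhesion protein, at -0.20 (0.837), the smallest p of their lists. The mean log2 value of CD72 was low, at 3.75. Changes were negative for 5 of the 8 leukocyte markers and 6 of the 7 fibroblast and endothelial markers, against 54.6% of all probe sets. PTPRC, CD14, COL1A1 and most defining epithelial markers had no matched probe set here. None of the measured markers passed the test, and their part in the values of the 8 genes was not tested.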

How the data were processed

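Trizol was used to extract total RNA, and biotinylated cRNA was prepared from it, per the labels' protocols. The deposited log2 values, 1 per probe set and array, were made with RMA per the submitters' processing notes. The genome build, the version of RMA and the definition of the probe sets were not given in the sources used here. Under RMA all arrays get a like distribution, which hides a shift of most genes, and differences at low signal are compressed.

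Unversioned accessions were looked up in the RefSeq gene table, which named 1043 of 1259 probe sets. The 3 RKO C2 F3 and 3 RKO C2 arrays were compared over all 1259 probe sets in limma 3.58.1 (R 4.3.3; lmFit and eBayes, two-sided, Benjamini-Hochberg, threshold 0.05). The script was tested on simulated data with independent arrays and with changes larger than those of the 8 genes. That test therefore does not show how well changes as small as these are found. Precision is limited by the number of arrays. The genes, the other lists and the motifs were chosen with earlier results of these data known. Genes named outside the 8 were up to 3 per list with the smallest p (probe set with the highest mean), and the 4 profiles closest to the gene with the smallest p. Some genes that this rule picks are left out of the text.

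Arrays share replicate numbers and a label suffix across populations. Over all probe sets, deviations of equal-numbered arrays from their own means had r = 0.52, 0.18 and 0.26, which met the limit for pairing, over 0.1 for each number. Array 3 of RKO C2 F3 with array 2 of RKO C2, of unequal number, was also over that limit, at r = 0.15. The other unequal numbers had r from -0.38 to 0.018. The main fit, and every SE, interval and p from it, leaves the pairing out, and blocked values are named as such. No 2 arrays shared over 0.477% identical values. Alternatives were the replicate block, median centring, quantile normalization, a filter at a mean log2 of 5, trended robust eBayes, array weights, leaving out arrays singly or by number, and a threshold of 0.10.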

Additional observations from a re-analysis of the deposited data

How the results depend on the processing

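The number of the 8 genes past the threshold was 0 in every setting run, including an adjusted p under 0.10. The number among all 1259 probe sets, 1 in the fit as planned, was 2 with the replicate block and 2 at an adjusted p under 0.10, and ran from 0 to 2 when arrays were left out, singly or by number. The block changed no call of the 8 genes. Over 15 alternatives each, UAP1 stayed positive (0.11 to 0.23), and GFPT1 (-0.15 to -0.0017) and OGA (-0.082 to -0.0022) stayed negative. In 12 of 120 values the sign turned, for 5 genes, none past the threshold, and the cause was not tested. GNPNAT1 was at 0.0065 with array weights, 0.0098 with median centring and 0.018 with quantile normalization. With single arrays left out GNPNAT1 ran from -0.069 to 0.056, GFPT2 from -0.16 to 0.038, GNPDA1 from -0.074 to 0.00084, NAGK from -0.12 to 0.025 and OGT from -0.18 to 0.051. Without replicate 2 of both populations GFPT2 was at 0.0055 and GNPNAT1 at 0.019, and without replicate 1 of both GNPNAT1 was at 0.042. Averaging probe sets per gene was not run, since each of the 8 had 1. With 3 arrays a population and no detection call, changes as small as most of these cannot be told from 0.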
